A study of Bos taurus with 4 samples.

Results

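The secreted carrier proteins examined were the lipid carriers APOA1, APOA2 and APOE, the retinol carrier RBP4, the thyroxine carrier TTR, and AFP of the albumin family. They were chosen by name, as every probe whose platform symbol is 1 of these 6 genes, which gave 6 of the 15216 genes named on the array and 9 of its 43794 probes. APOA1 had 2 probes, APOE had 3 and each of the other genes had 1. The values come from bovine blastocysts made by maturing, fertilising and culturing oocytes from slaughterhouse ovaries in vitro, with semen of bulls aged 12 or 16 months. On each of 4 arrays with 2 dyes, RNA of embryos from 12-month semen was hybridised together with RNA of embryos from 16-month semen. The 12-month RNA carried Cy5 on arrays 1 and 2 and Cy3 on arrays 3 and 4. The labels call the arrays biological replicates and name 4 bulls, each collected at both ages. Which bull sired the embryos of which array, and how many embryos gave each RNA, is not known here.

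In mammals the hypoblast, or primitive endoderm, lines the inner cell mass of the blastocyst and forms the visceral endoderm of the yolk sac. In mouse, visceral endoderm makes many of the plasma proteins that the liver makes later, among them apolipoproteins, transthyretin, retinol-binding protein and alpha-fetoprotein, and passes lipids and vitamins to the embryo. The genes are driven in mouse by endoderm factors of the GATA, SOX, FOXA and HNF families. The arrays measured whole blastocysts, so fewer cells of a type and less RNA per cell cannot be told apart.

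Most of these probes gave a signal close to that of the negative controls, as did the median probe of the array. None passed the test for a difference between the paternal ages. Brightness was judged against the 153 negative control spots of each array, and a signal counted as above background when it exceeded their 95th percentile on the same array and in the same dye. Over the 4 arrays that percentile was 62.4 to 95.4 in Cy5, where the median signal of all probes was 80 to 122. In Cy3 it was 224.6 to 268.2, with a median signal of 251 to 306. Of the 72 signals of the 9 probes, 56 passed (77.8%), against 67.5% over all probes. The count was 27 of 36 in 12-month RNA and 29 of 36 in 16-month RNA. Both APOA1 probes, 2 of the APOE probes and TTR passed in all 8 signals, as did 45.5% of all probes. Counted by gene, that was 3 of 6 (50%), against 58.1% of all named genes. APOA2 and RBP4 passed in 6 of 8, AFP in 3 and the third APOE probe in 1. Ranked by mean log2 brightness among all probes, the APOA1 probes were at percentiles 71.6 and 66.5 and TTR at 59.1. The APOE probes were at 54.7, 51.9 and 5.55, RBP4 at 47.4, APOA2 at 45.1 and AFP at 33.6.

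**Figure D1:**
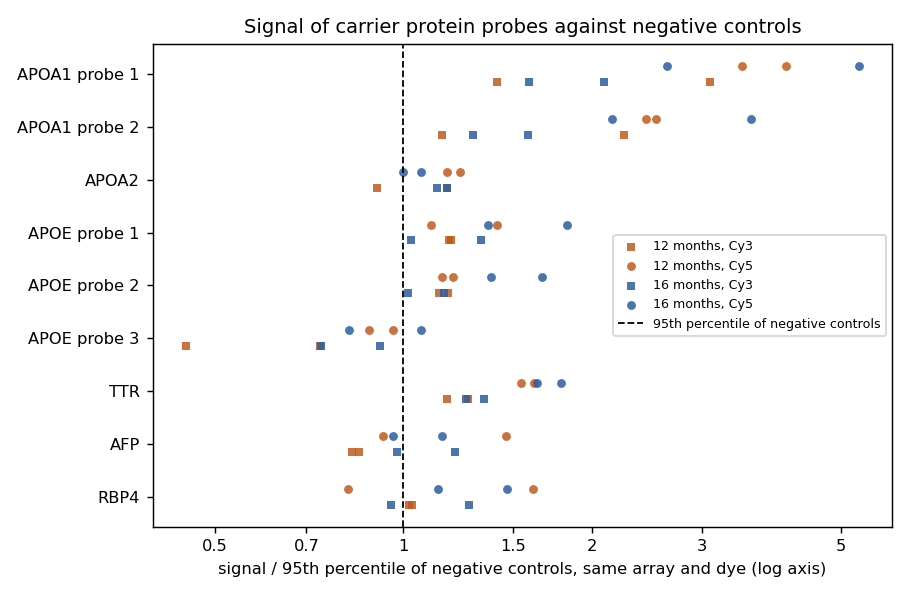
Background-subtracted signal of each of the 9 probes, divided by the 95th percentile of the negative controls of the same array and dye (log axis); circles are Cy5, squares Cy3, orange 12 months and blue 16 months, 1 point per array and dye. APOA1 probe 1 reached 5.35 times the level of the controls, while the third APOE probe passed it once, at 1.07.

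A probe was tested when at least 4 of its 8 signals were above background, which kept 7 of the 9 probes and 5 of the 6 genes. Ratios are given on the log2 scale as 12 over 16 months: above 0, the level was higher in embryos of the younger semen. limma, with terms for age and dye and adjustment over all 30986 tested probes, called 0 of the 7 probes at an adjusted p of 0.05, where it called 0% of all tested probes. None had an unadjusted p under 0.05, where 4.12% of all tested probes did, and their adjusted p lay between 0.969 and 1.00. No member had the same sign on all 4 arrays. Of the tested probes measured on every array 10.1% did, 4.76% higher and 5.35% lower. An exact sign-flip test over the 4 ratios, two-sided, gave p from 0.25 to 1 for the 9 probes, and 0.125 is the smallest it can give. The median half-width of a 95% confidence interval was 0.29 over all tested probes. These intervals are not adjusted for the number of probes, so a call after adjustment needed a larger difference than that.

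**Figure D2:**
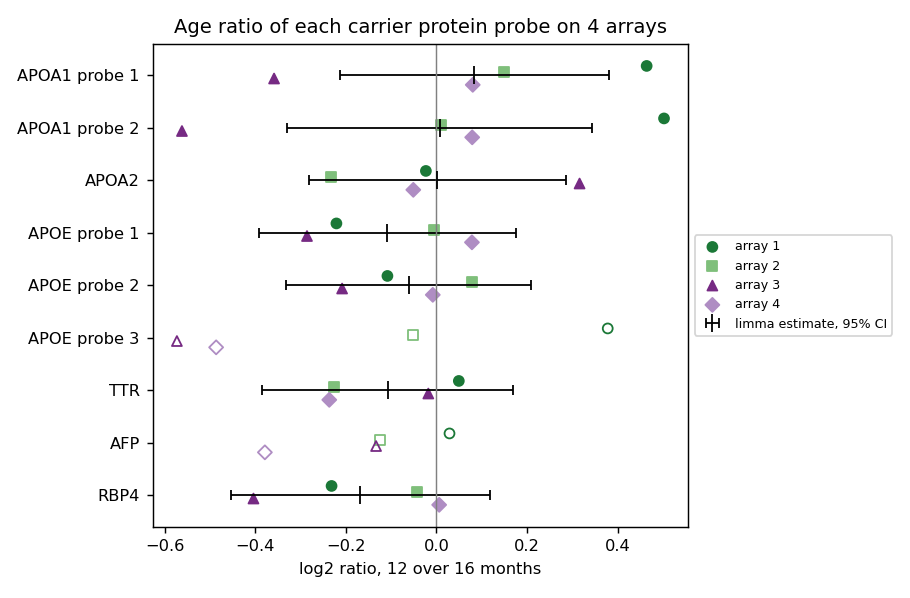
Log2 ratio of 12 over 16 months of each probe on each array (coloured points; green for 12 months in Cy5, purple for 12 months in Cy3) with the limma estimate and its 95% confidence interval (black). Open points mark the 2 probes that were not tested. Every interval includes 0, and the points of every probe lie on both sides of it.

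APOA1, the main protein of high-density lipoprotein, gave the clearest signal against the controls. The signal of probe 1 (EMBV3_07752) was 1.41 to 5.35 times the control level and that of probe 2 (EMBV3_01993) 1.15 to 3.59 times. Of the 72 signals, 11 were over 2 times the control level, and all 11 were of APOA1. After normalisation across channels, the log2 level of probe 1 in 12-month RNA was 8.42, 8.75, 7.77 and 8.89 on arrays 1 to 4, and in 16-month RNA 7.96, 8.60, 8.13 and 8.81. The levels of the ages overlapped, and array 3 held the lowest level of the 12-month group. The level spanned 1.11 over the 8 signals, and both ages were high on array 4.

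The ratio of APOA1 probe 1 was 0.46, 0.15, -0.36 and 0.080 on arrays 1 to 4, with a mean of 0.084 ± 0.34 (SD, n = 4). The ages thus differed in opposite directions on arrays 1 and 3, by more than the mean. limma gave a fold of 1.06 with a 95% interval of 0.863 to 1.30 and an adjusted p of 0.977. Probe 2 gave 0.50, 0.0094, -0.56 and 0.079, with a mean of 0.0072 ± 0.44 (SD, n = 4), a fold of 1.01 (0.796 to 1.27) and a limma adjusted p of 0.999. The probes had the same sign on 4 of 4 arrays and differed by 0.0012 to 0.20. Their mean over the arrays with 12-month RNA in Cy5 was 0.31 for probe 1 and 0.26 for probe 2, and over the arrays with it in Cy3 it was -0.14 and -0.24. The dye coefficient, Cy5 minus Cy3, was 0.22 and 0.25, with limma adjusted p of 0.558 and 0.564.

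**Figure D3:**
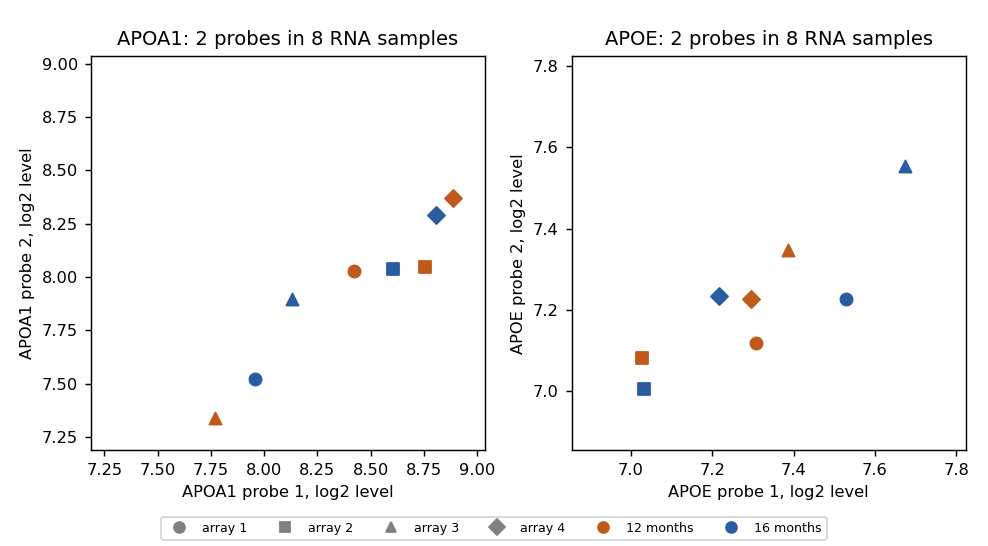
Normalised log2 level of probe 2 against probe 1 for APOA1 (left) and APOE (right), 1 point per array and age (8 points each; shape is the array, colour the age). The APOA1 levels spread over 1.11 for probe 1 and 1.03 for probe 2, and the ages overlap in both panels.

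APOA2, the other major protein of high-density lipoprotein, was close to the controls. Its probe (EMBV3_05359) lay between 0.908 and 1.23 times the control level, with both signals of array 4 at or below it. The ratio was -0.023, -0.23, 0.32 and -0.051 on arrays 1 to 4, with a mean of 0.0022 ± 0.23 (SD, n = 4). Array 3 was the single array with a higher level in 12-month RNA. limma gave a fold of 1.00 (0.823 to 1.22) and an adjusted p of 1.00. The sign of the mean turned under 6 of the other processing settings, so APOA2 had no settled direction.

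APOE, the ligand by which lipoproteins bind receptors of the low-density lipoprotein receptor family, was measured by 3 probes of unequal quality. Probe 1 (EMBV3_43097) lay at 1.03 to 1.82 times the control level and probe 2 (EMBV3_35742) at 1.02 to 1.67 times. Probe 3 (EMBV3_16107) lay at 0.450 to 1.07 times, and was above background only in 16-month RNA on array 3. The log2 level of probe 1 was 7.31, 7.03, 7.39 and 7.30 in 12-month RNA and 7.53, 7.03, 7.67 and 7.22 in 16-month RNA. The ages overlapped, with the highest levels of both on array 3 and the lowest of both on array 2.

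The ratio of APOE probe 1 was -0.22, -0.0048, -0.29 and 0.078, with a mean of -0.11 ± 0.17 (SD, n = 4). That of probe 2 was -0.11, 0.078, -0.21 and -0.0081, with a mean of -0.062 ± 0.12 (SD, n = 4). Both were lower in 12-month RNA on 3 of 4 arrays, but not on the same 3, and they had the same sign on 2 of 4 arrays. They differed by 0.078 to 0.11 on any array. limma gave folds of 0.928 (0.762 to 1.13) and 0.958 (0.794 to 1.16), with adjusted p of 0.969 and 0.983. The estimate of probe 1 ran from -0.20 without array 4 to -0.017 without array 3, and that of probe 2 from -0.11 to -0.012 in the same omissions. Probe 3 was not tested and has no fold given, because only 1 of its 8 signals was above background, and none in 12-month RNA.

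RBP4 carries retinol in plasma, and TTR carries thyroxine and holds RBP4 in a complex that is too large to be filtered by the kidney. The RBP4 probe (EMBV3_27365) was the member with the smallest unadjusted p, 0.217 by limma. Its signal was 0.817 to 1.61 times the control level, and both signals of array 1 were below background. The log2 level was 6.63, 7.50, 6.996 and 7.03 in 12-month RNA and 6.86, 7.55, 7.40 and 7.03 in 16-month RNA. The ages overlapped, with array 1 lowest and array 2 highest in both.

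The RBP4 ratio was -0.23, -0.044, -0.40 and 0.0060, with a mean of -0.17 ± 0.19 (SD, n = 4). It was lower in 12-month RNA on 3 of 4 arrays, and on array 1 that ratio is between signals that were not above background. limma gave a fold of 0.890 (0.730 to 1.09) and an adjusted p of 0.969. Its estimate ran from -0.27 without array 4 to -0.066 without array 3.

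TTR (EMBV3_18966) varied least between signals, with log2 levels spanning 0.39. Its signal was 1.18 to 1.79 times the control level and above background on every array at both ages. The log2 level was 7.47, 7.44, 7.50 and 7.28 in 12-month RNA and 7.42, 7.67, 7.52 and 7.51 in 16-month RNA, and the ages overlapped. The ratio was 0.049, -0.23, -0.018 and -0.24, with a mean of -0.11 ± 0.15 (SD, n = 4). Its lowest ratios were on arrays 2 and 4, not on array 3. limma gave a fold of 0.928 (0.766 to 1.12) and an adjusted p of 0.969. Its estimate ran from -0.18 without array 1 to -0.039 without array 2.

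AFP, a fetal plasma protein of the albumin family, was above background in too few signals to be tested. Its probe (EMBV3_13683) was above background in 12-month RNA on array 1 and in 16-month RNA on arrays 1 and 4, at 0.828 to 1.46 times the control level over all 8 signals. The ratio was 0.029, -0.12, -0.13 and -0.38 on arrays 1 to 4, with a mean of -0.15 ± 0.17 (SD, n = 4). On arrays 2 and 3 neither signal behind that ratio was above background. AFP was thus above background at both ages on array 1, and a low signal on the others does not show that the transcript was absent. Of the rest of its family, ALB was above background in 6 of 8 signals with a ratio of -0.095 ± 0.13 (limma adjusted p = 0.971, n = 4), which turned to 0.018 when mean pixel intensities were used. GC and AFM, the carriers of vitamin D and vitamin E, were above background in 0 of 8, and are named because they complete that family.

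Taking each gene by its brightest probe, the median ratio of the 5 tested carrier genes was -0.11, with 2 higher and 3 lower, beside 0.0012 over 11963 genes. The median per array was -0.023, -0.044, -0.29 and 0.0060. Array 3 stood apart from the others, with the lowest ratio of 5 of the 7 tested probes and the highest of APOA2. The SD of the ratio over all tested probes was 0.40 on array 3 and 0.29 to 0.31 on the others, and the part of this wider spread in the members' ratios was not tested. Leaving out any 1 array brought the carrier genes' median closer to 0, to -0.054, -0.039, -0.066 and -0.053 without arrays 1 to 4. In a fit with age and dye terms, leaving out either array of a dye orientation shifts a probe's estimate equally far, in opposite directions. These medians therefore cannot tell which array of such a pair moved the carrier genes.

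The other genes of these pathways were read from lists of named genes, again with 1 probe per gene. Over all genes tested, 6027 were higher and 5936 lower, and 58.1% of all named genes were above background in all 8 signals. Of the 12 lists, none had a member past an adjusted p of 0.05 by limma with all 4 arrays, and the lists are given by their counts and medians alone. The medians of the other apolipoproteins, the receptors, the retinol genes, the endoderm transcription factors and the inner cell mass markers changed sign under at least 1 other processing setting, and so have no settled direction. Among other apolipoproteins, 7 of 13 genes were above background in all 8 signals (53.8%). The 11 tested had a median of -0.0031, 5 of them above 0 and 6 below. APOD, which carries small lipids, had a ratio of 0.26 ± 0.22 and was higher on all 4 arrays, while APOA4, of intestinal lipoproteins, had -0.19 ± 0.088 and was lower on all 4. APOM, which carries sphingosine 1-phosphate, had -0.17 ± 0.34 (SD, n = 4; limma adjusted p 0.969 for each of the 3).

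Lipoprotein receptors and assembly factors had 4 genes higher and 5 lower of 9 tested, with a median of -0.0080. MTTP, which loads lipid onto APOB, had a ratio of -0.27 ± 0.53, and SCARB1, a receptor for high-density lipoprotein, -0.23 ± 0.44. Retinol carriers and enzymes had 8 higher and 6 lower of 14, with a median of 0.052. The retinoic acid binders CRABP2 and CRABP1 had ratios of 0.24 ± 0.42 and -0.22 ± 0.38. For each of these 4 genes the SD exceeded the mean (n = 4; limma adjusted p = 0.969).

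Other plasma proteins of liver and yolk sac, a list that shares ALB and GC with the AFP family, had 11 genes higher and 4 lower of 15 tested. Their median was 0.090, and 11 of 26 genes were above background in all 8 signals (42.3%, against 58.1% of all named genes). HP, which binds free haemoglobin, had a ratio of 0.42 ± 0.41, the clotting factor F2 0.32 ± 0.33 and the fibrinogen chain FGG 0.27 ± 0.26. HP and F2 were higher on 3 of 4 arrays and FGG on all 4, with limma adjusted p of 0.969 for each (n = 4). Without array 4, the only array on which HP was lower, its estimate was 0.67, which is not separate evidence of a difference.

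**Figure D4:**
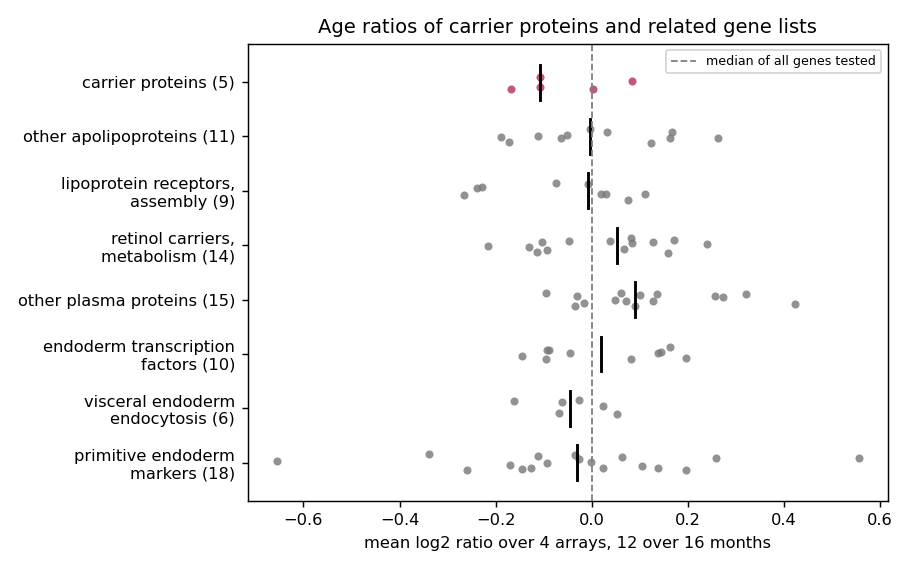
Mean log2 ratio of 12 over 16 months of each tested gene (points, brightest probe) in the carrier proteins and in 7 related lists, with the list's median (black bar), the number of genes tested in brackets and the median of all genes (dashed). List medians run from -0.11 for the carrier proteins to 0.090 for other plasma proteins, and points lie on both sides of 0 in every list.

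Detection differed between the lists for the cells known to make these proteins. Of 20 primitive endoderm genes, 15 were above background in all 8 signals (75.0%, against 58.1% of all named genes). Of 19 endoderm transcription factors, 7 were (36.8%), and 9 were above it in fewer than 4 signals. For the rest of the blastocyst the counts were 16 of 20 trophectoderm genes and 8 of 13 inner cell mass genes. CUBN, an endocytic receptor of visceral endoderm in mouse that takes up APOA1, was above background in 0 of 8 signals on either of its probes, and is named for that role. Endoderm transcription factors had 5 genes higher and 5 lower of 10 tested, with a median of 0.018. HNF4A had a ratio of 0.20 ± 0.61 and SOX17 0.14 ± 0.30 (SD, n = 4; limma adjusted p 0.969). The lists overlap, and the shared genes are named for that. HNF4A, SOX17, GATA4, SOX7 and FOXA2 are also primitive endoderm markers, and EOMES is also a trophectoderm marker. DAB2 counts among the primitive endoderm, trophectoderm and endocytosis genes, and CUBN and AMN among the primitive endoderm and endocytosis genes. The endocytosis genes had a median of -0.045 over 6 genes.

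The 18 tested primitive endoderm genes had a median of -0.031, 7 of them above 0 and 11 below. The smallest p values were those of matrix genes, LAMA1 with a ratio of -0.66 ± 0.59, COL4A1 with -0.34 ± 0.14 and NID1 with 0.55 ± 0.61 (SD, n = 4; limma adjusted p 0.969 for each). COL4A1 was lower on all 4 arrays. With 1 array left out, the estimate of LAMA1 was -0.88 without array 4 and that of NID1 0.91 without array 3. In both, the array left out was the only one of the opposite sign, so these larger values are not separate evidence. Trophectoderm markers had a median of 0.040 with 12 higher and 7 lower of 19, and inner cell mass markers -0.022 with 4 higher and 6 lower of 10.

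Markers of cells that could be carried along were also read. Cumulus and granulosa genes had 6 higher and 2 lower of 8 tested with a median of 0.081. Of 17 such genes, 6 were above background in all 8 signals (35.3%, against 58.1% of all named genes). Blood and liver cell genes had 6 higher and 2 lower of 8 with a median of 0.065. Of 11 such genes, 4 were above background in all 8 signals (36.4%). Leaving out 1 array moved the cumulus median between 0.014 without array 4 and 0.12 without array 2, and the blood and liver median between 0.021 without array 3 and 0.093 without array 1. The part of such cells in the carrier signals was not tested.

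In the gene order of RefSeq assembly ARS-UCD2.0, several members lie beside relatives. APOA1 lies beside APOC3, APOA4 and APOA5, of which only APOA4 was tested here. APOE lies between TOMM40 and APOC4, and APOC2 follows APOC4. APOC4 and APOC2, proteins of triglyceride-rich lipoproteins, had ratios of 0.12 ± 0.15 and -0.11 ± 0.22 (SD, n = 4; limma adjusted p 0.969 for each). AFP lies between ALB and AFM.

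The genes whose ratios followed each member most closely were sought, for the 5 tested genes, among 8310 named genes with all 8 signals above background. The measure was the root mean square difference over 4 array ratios, and genes share the arrays. Closest to APOA1 were ZNF593 at 0.040, BPNT2 and SH3BP5, and 44 genes lay within 0.1. Closest to APOE were WIPF2 at 0.026, NME3 and EFNA1, with 152 genes within 0.1, and closest to RBP4 were SF3B3 at 0.023, SMAP1 and ZDHHC3, with 98. For TTR they were HVCN1 at 0.026, RAB2B and ALCAM, with 82, and for APOA2 SPATS1 at 0.030, MYL9 and MST1R, with 85. Between 44 and 152 of the 8310 genes thus lay within 0.1 of each of these 5 members. No such genes are named for AFP, whose ratios mostly rest on signals that were not above background. The same limit holds for the ratio of RBP4 on array 1 and that of APOA2 on array 4, where neither signal was above background.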

How the data were processed

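RNA of blastocysts was measured on 4 arrays with 2 dyes on 1 slide, 12-month against 16-month semen on each. Per the labels' protocols, total RNA was linearly amplified and labelled chemically, which can change relative abundance at both ages. The deposited scanner files hold intensity values per spot, and for its surroundings, in Cy5 and Cy3, without background subtraction, per the file headers. The authors' deposited value table is on a log2 scale. Its columns, compared with the scanner ratios, followed Cy5 over Cy3 of their own array (r 0.986 to 0.994 across probes, slope 0.902 to 0.927, column medians -0.016, -0.0020, -0.012 and -0.0079), so the direction was read as Cy5 over Cy3 and turned on arrays 3 and 4, while its background step stays unknown. It was used only as an alternative. limma is named, without a version, in the submitters' processing notes.

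Median intensities were background-corrected with normexp (offset 50) and normalised by loess within arrays, control spots at weight 0. The scanner software marked 13, 10, 64 and 818 spots as ignored on arrays 1 to 4, and these were left out before the background fit. With them the fitted background SD of Cy3 on array 3 rose from 16.9 to 530.0, which drew the ratios of dim probes there towards 0 (RBP4 -0.073 in place of -0.40). Levels per channel were set by Aquantile. The 95th percentile of the negative controls ranged for Cy5 from 62.4 to 95.4 and for Cy3 from 224.6 to 268.2, and 69.5% to 72.3% of probes exceeded it in Cy5 and 62.7% to 66.6% in Cy3. Nonspecific signal of that size, left after subtraction of the local background, adds to both channels and pulls a ratio towards 0, and the number of arrays limits the precision.

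Ratios were tested with limma 3.58.1, run in R 4.3.3 (functions lmFit and eBayes, age and dye coefficients, two-sided, Benjamini-Hochberg over 30986 probes, threshold 0.05), a procedure tested on simulated data. There, 200 of 30388 probes were given a true log2 difference, and limma called 0% of the 200 at 0.5 or 1 and 89% at 2. In the measured data limma called 0 probes for age (smallest adjusted p 0.448, with 1277 at an unadjusted p under 0.05). It called 9 for dye, no member among them. Values are means ± SD over arrays, and the SD includes the dye effect that the fit removes. P-values measure the spread between these 4 arrays. Batches of fertilisation or labelling are not known here, and age goes with the time of collection.

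The platform annotation gives 21790 probes a single gene symbol, 0 probes several and 22004 probes none. Set against RefSeq genes of ARS-UCD2.0, 20025 symbols were current, 1524 were updated by synonym and 241 kept an unmatched name. Without a genome, the place of a probe in its transcript and its likeness to related genes were not analysed here, and no sequence is shown. The members and gene lists were chosen with earlier results of these data known. Named were all member probes, the 3 genes of each list with the smallest p, of which some are given, and per tested member the 3 genes with the closest ratios. Alternatives changed the background step, normalisation, pixel summary, dim-probe filter, dye term, ignored spots and arrays. The series tables held 0 columns of other samples.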

Additional observations from a re-analysis of the deposited data

Results flagged for a closer look

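Each of 54 sets of 4 array values was examined for 1 array far from the rest, and 4 were marked. Chance marks about 1 in 20 such sets. The median ratio of the carrier genes was -0.29 on array 3, against -0.044 to 0.0060 on the others. It depended on leaving the ignored spots out of the background fit. With them in the fit, the brightest probes on array 3 had -0.12 (APOA1), 0.080 (APOA2), -0.061 (APOE), 0.0080 (TTR) and -0.073 (RBP4). SORL1, a sorting receptor that binds APOE, had a ratio of -0.96 on array 3. ALDH1A2, which makes retinoic acid, had 0.54 on array 3. FGG had 0.66 on array 2. In each case the gap to the nearest array exceeded the critical share of the range for 4 values. The carrier genes passed it by a narrow margin, at a share of 0.8291.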

How the results depend on the processing

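No member probe passed an adjusted p of 0.05 under any setting, and with all 4 arrays no setting called any probe. Without 1 array, limma called 0 to 383 probes, 43 without array 3 and 383 without array 4, with no member among them. Of the other lists it then called NID1, CYP11A1, PAG12 and HSD3B1 without array 3, and HP, LAMA1 and STAR without array 4. For each of these genes except STAR, the array left out was the only one of the opposite sign, so the call is not separate evidence. With 1 array left out, the lone array of its dye orientation is assumed to vary like the others. The median of the carrier genes stayed negative, between -0.14 and -0.043 with all arrays and between -0.066 and -0.039 without 1. The median of all genes became -0.021 under median centring. The ratio of APOA1 probe 2 turned to -0.015 under median centring and -0.0015 with the background taken from negative controls. APOA2 turned to -0.0047 without background correction, -0.0020 with background subtraction, -0.030 from mean pixels, -0.0017 in the authors' deposited table, and -0.051 with ignored spots kept or in the background fit. Leaving out 1 array moved APOA1 probe 1 between -0.026 and 0.19, probe 2 between -0.15 and 0.17, and APOA2 between -0.090 and 0.094. It also moved the medians of the primitive endoderm, trophectoderm and endocytosis genes across 0 (-0.066 to 0.030, -0.049 to 0.13, and -0.16 to 0.035). Small dye coefficients turned sign as well. Under median centring APOE probe 2 had -0.059, TTR -0.055 and RBP4 -0.050. RBP4 had -0.025 without background correction. From mean pixels APOE probe 1 had 0.0076, probe 2 -0.13, TTR -0.027 and RBP4 -0.055. TTR had -0.014 in the deposited table, -0.0059 with ignored spots kept and -0.0064 with them in the fit, and RBP4 -0.056 in both of the last. APOE probe 1 had 0.0052 with negative controls. Without 1 array these coefficients ran from -0.096 to 0.087 (APOE probe 1), -0.0036 to 0.097 (APOE probe 2), -0.072 to 0.13 (RBP4) and -0.049 to 0.088 (TTR). The cause of these turns was not tested. The background from negative controls and the fit with ignored spots were added after seeing the data. Each array pairs both ages, so every ratio tested is already a paired difference. Signal close to the negative controls limits the values of the members other than APOA1.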
